A study of Homo sapiens with 6 samples.

Results

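The IL13 and IL4 receptor group comprised 4 genes, the receptor subunits IL13RA2, IL13RA1 and IL4R and the transcription factor STAT6, and its members were all 8 probe sets annotated to these symbols, of 22277 on the array. All 8 had a mean signal over the filter on dim probe sets. The genes were chosen by their signals on these same arrays, that is, with the levels in the 3 groups known. Their levels are therefore given as a description, without a test. The gene lists used below were also chosen with earlier results of these data known. Counts and medians over a list, set beside all genes, therefore describe its genes and do not test the list. Total RNA of the human breast cancer line MDA-MB-231 was measured on 6 arrays. S1a and S1b are, by their labels, a first and a second isolated seeder population (seeder cells are circulating tumour cells able to recolonise the tumour of origin), and parental is the line they came from. Each of the 3 groups had 2 arrays, and all cells were subconfluent in DMEM with 10% serum. Each isolate is 1 population, and the titles speak of biological replicates without naming separate cultures, so an error or p-value measures the spread between these arrays only.

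IL13RA1 and IL4R together form the type II receptor, which binds both interleukin 4 and interleukin 13 and is the form used by most non-haematopoietic cells. IL4R with the common gamma chain IL2RG forms the type I receptor, which binds interleukin 4. JAK kinases bound to these chains phosphorylate STAT6, which then enters the nucleus and activates transcription. IL13RA2 binds interleukin 13 with high affinity but has a short cytoplasmic tail and is best known as a decoy, although signalling through it has also been described, and it belongs to a published set of genes high in lung-metastatic derivatives of MDA-MB-231.

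All 6 line markers (VIM, CD44, AXL, EGFR, CAV1 and MSN) lay above 44 signal units, the floor of the filter on dim probe sets, which is the 40th percentile of mean signal. Progesterone receptor (PGR) and E-cadherin (CDH1) lay below it, while ESR1, ERBB2 and EPCAM lay above it, and EPCAM, with the highest mean of the 5 markers known to be low in the line, averaged 415 units. Of 11 leukocyte markers 1 (CD14) was above the floor, and PTPRC, which all leukocytes carry, read 13.8 to 34 units. The summed leukocyte signal was 201 to 254 units on S1a arrays and 167 to 205 on S1b arrays, against 395 to 414 on parental arrays, and its part in the results was not tested. Of 5 endothelial markers 1 (KDR) was above the floor, and their sum was 163 to 189 units on S1a arrays and 133 to 137 on S1b arrays, against 86.8 to 142 on parental arrays. Of 8 fibroblast and pericyte markers 4 were above it, and their sum was 422 to 473 units on S1a arrays and 315 to 352 on S1b arrays, against 508 to 524 on parental arrays. Of these, the actin ACTA2 rose in both isolates (1.74 ± 0.25 and 1.13 ± 0.25, limma adjusted p = 0.000493 and 0.00487, the S1b call ending with the mean of its probe sets at 0.0509), and the collagen COL1A2 fell by at least 2.31-fold in both (0.0361 and 0.0396, lost under 6 and 8 of 14 alternatives). Their part in the results was not tested either. Array medians ran from 87.6 to 106 units at a common trimmed mean of 500.2.

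IL13RA2, the high-affinity interleukin 13 receptor, was bright in S1a, dim but above the floor in S1b and below the floor in the parental line. Its single probe set read 848 and 936 units on the S1a arrays, 66.4 and 83.7 units on the S1b arrays and 9.9 and 3.4 units on the parental arrays. The 3 groups were ordered S1a, S1b, parental, and no array of a group reached into the next group. The mean of 892 ± 62.6 units in S1a (SD, n = 2) was at least 20.3-fold above the parental line and that of 75 ± 12.2 units in S1b at least 1.71-fold, both set against the floor because the parental mean of 6.65 ± 4.6 units lay under it. S1a was 11.9-fold above S1b, a ratio between signals that were both above the floor. On the scale of the model, log2(signal + 3.94), the difference was 6.47 ± 0.35 for S1a minus parental, 2.96 ± 0.35 for S1b minus parental and 3.51 ± 0.35 for S1a minus S1b (SE). The first pair of these values rests on a parental signal under the floor, depends on the pseudocount and is no bound: with a pseudocount of 50, which damps dim signals, it was 4.06 for S1a minus parental and 1.14 for S1b minus parental. The S1a minus S1b difference, measured above the floor on both sides, was 2.92 with that pseudocount. It ranked 1 from the highest of 7791 genes tested, and 2 without either S1b array. IL13RA2 was chosen with these signals known, and its mean over the 6 arrays passed the filter mainly through S1a. The rank is therefore a description.

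**Figure D1:**
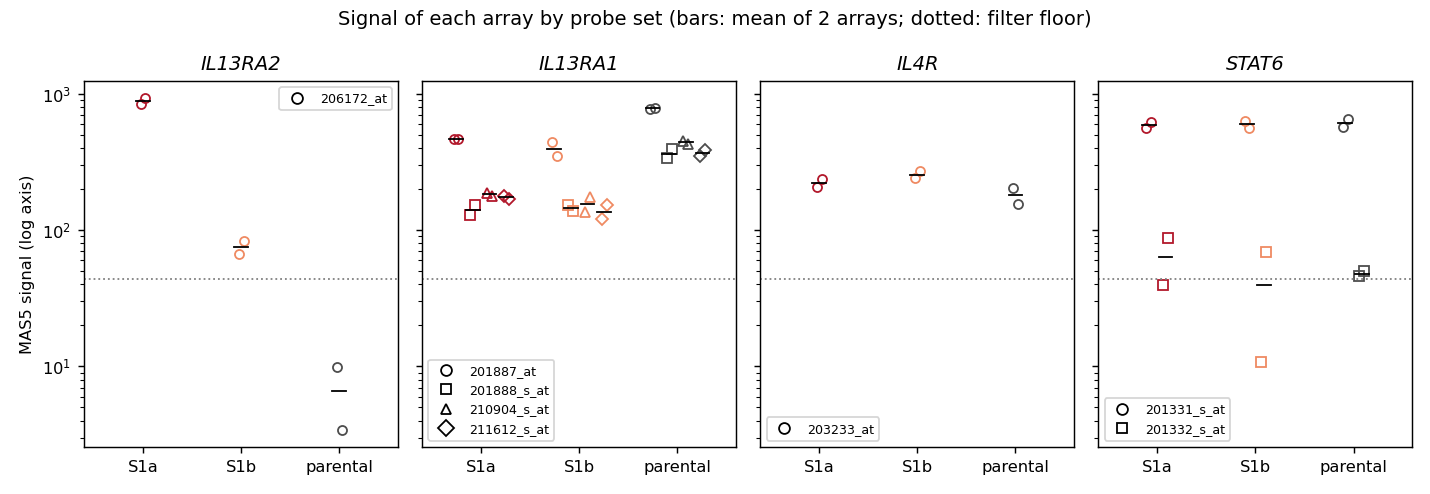
MAS5 signal (log axis) of each array for the 8 probe sets, with S1a, S1b and parental from left to right in each panel; a marker is an array, a bar the mean of 2 arrays, and the dotted line the floor of 44 units. IL13RA2 reads 892 units in S1a, 75 in S1b and 6.65 in parental on average, all 4 IL13RA1 probe sets sit lower in both isolates than in parental, and the STAT6 groups overlap.

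IL13RA1, which binds interleukin 13 and recruits IL4R, was lower in both isolates on all 4 of its probe sets. Probe set 201887_at, the only IL13RA1 set without a shared-probe suffix, read 465 and 464 units in S1a and 443 and 347 in S1b, against 771 and 790 in parental. Probe set 201888_s_at read 129 and 152 units in S1a and 152 and 138 in S1b, against 335 and 390 in parental. All isolate arrays of both probe sets lay below both parental arrays. Probe set 210904_s_at read 187 and 178 units in S1a and 135 and 175 in S1b, against 453 and 429 in parental. Probe set 211612_s_at read 178 and 170 units in S1a and 121 and 152 in S1b, against 352 and 386 in parental. The 4 probe sets thus gave the same direction in each isolate, and their targets are 1 gene, so they are not independent measurements. Their log2 difference ran from -1.34 to -0.74 for S1a minus parental and from -1.50 to -0.99 for S1b minus parental, and the smaller size in each range belonged to 201887_at (-0.74 ± 0.13 and -0.99 ± 0.13, SE). Between the isolates, 201887_at averaged 465 ± 0.286 units in S1a and 395 ± 68 units in S1b (SD, n = 2). That gap was about the size of the S1b spread, and the log2 difference of 0.24 ± 0.13 (S1a minus S1b) became 0.069 without S1b replicate 2 and 0.42 without S1b replicate 1. On the other probe sets S1a minus S1b was -0.045 ± 0.19 (201888_s_at), 0.24 ± 0.18 (210904_s_at) and 0.35 ± 0.18 (211612_s_at), so the sign differed between probe sets.

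IL4R, the chain shared by both receptor types, was slightly higher in the isolates. Its only probe set read 206 and 238 units in S1a and 239 and 271 in S1b, against 203 and 157 in parental. Every isolate array lay above both parental arrays, but S1a replicate 1 and parental replicate 1 differed by a few units only. The means were 222 ± 22.4 units in S1a, 255 ± 22.2 in S1b and 180 ± 32.6 in parental (SD, n = 2), so in the order S1b, S1a, parental each gap between neighbouring means was smaller than the sum of the 2 SDs. The log2 difference was 0.31 ± 0.19 for S1a minus parental, 0.50 ± 0.19 for S1b minus parental and -0.20 ± 0.19 for S1a minus S1b (SE). In size, 54.4% of the genes tested differed more than IL4R between S1a and parental and 35% more between S1b and parental.

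STAT6, the transcription factor that the receptors activate, showed no separation of the groups. The bright probe set 201331_s_at read 556 and 623 units in S1a and 632 and 558 in S1b, against 570 and 657 in parental. Its log2 difference was -0.056 ± 0.13 for S1a minus parental and -0.042 ± 0.13 for S1b minus parental (SE), and 91.2% and 93.6% of the genes tested differed more. The dim probe set 201332_s_at read 39.8 and 86.9 units in S1a and 10.8 and 68.7 in S1b, against 45.7 and 50 in parental, so its arrays within an isolate differed more than the groups did. The sign of the STAT6 difference turned to 0.13 (S1a minus parental) and 0.15 (S1b minus parental) when arrays were centred on their medians, a scaling under which the median of all genes was 0.16 for S1a minus parental and 0.17 for S1b minus parental, in place of -0.030 and -0.021. Under that scaling IL13RA1 remained negative (-0.55 and -0.80) and IL4R positive (0.50 and 0.70).

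**Figure D2:**
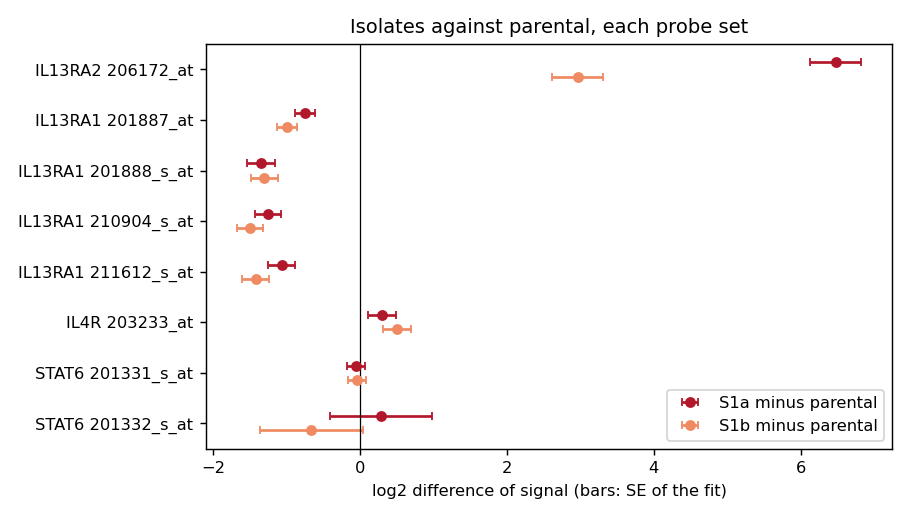
Log2 difference of signal from the parental line for each of the 8 probe sets, S1a and S1b in separate colours, with the SE of the model as bars. IL13RA2 lies at 6.47 and 2.96, values that depend on the pseudocount because the parental signal is under the floor and for which only at least 20.3-fold and at least 1.71-fold hold, the IL13RA1 probe sets between -1.50 and -0.74, IL4R at 0.31 and 0.50 and the bright STAT6 probe set near 0.

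Counted over the 8 probe sets, arrays did not overlap for 6 between S1a and parental (2 higher, 4 lower), where 68.6% of all named probe sets over the filter did not overlap (31.5% higher, 37.1% lower). Between S1b and parental it was also 6 of 8 (2 higher, 4 lower), beside 67.7% of all (31.4% higher, 36.3% lower). Between S1a and S1b it was 5 of 8 (4 higher, 1 lower), beside 48.3% of all (24.2% higher, 24.1% lower). The 2 isolate comparisons share the parental arrays. The non-overlapping sets of both were those of IL13RA2 and IL4R (higher) and all 4 of IL13RA1 (lower). Between the isolates they were IL13RA2 and 3 IL13RA1 sets (higher in S1a) and IL4R (lower in S1a).

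RefSeq promoters (build GRCh38.p14, 250 bases before to 50 after the gene start) were matched for 3 of the 4 genes, IL13RA1, IL4R and STAT6. Those of IL13RA1 and IL4R are shown because these chains form 1 receptor and their isolate means lay on opposite sides of the parental mean. The IL4R means lay only slightly above it. The IL13RA1 window lies at chrX:118727356-118727655 (plus strand) and the IL4R window at chr16:27313724-27314023 (plus strand), and capitals mark the GC box GGGCGG on either strand.
IL13RA1: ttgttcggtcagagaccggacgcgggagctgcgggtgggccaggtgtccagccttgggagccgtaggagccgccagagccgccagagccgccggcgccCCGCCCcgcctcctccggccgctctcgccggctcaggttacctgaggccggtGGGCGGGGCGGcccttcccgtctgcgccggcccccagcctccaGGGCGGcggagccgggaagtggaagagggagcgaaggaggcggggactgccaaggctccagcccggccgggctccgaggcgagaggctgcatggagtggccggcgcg
IL4R: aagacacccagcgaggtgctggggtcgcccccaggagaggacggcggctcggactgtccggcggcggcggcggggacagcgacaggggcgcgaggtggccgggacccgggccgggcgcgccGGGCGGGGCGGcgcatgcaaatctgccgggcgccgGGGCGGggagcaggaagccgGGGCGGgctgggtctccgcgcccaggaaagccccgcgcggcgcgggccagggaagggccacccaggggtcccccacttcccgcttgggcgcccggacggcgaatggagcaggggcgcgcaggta
Each of these windows held 4 matches to GGGCGG, 2 of which share a base, and the STAT6 window held 2, where 45% of 35116 promoter windows of this length held at least 1. G and C made up 76.3% of the IL13RA1 window and 79.3% of the IL4R window, against 57.7% for STAT6 and a median of 58.7% over all windows. The palindrome TTCNNNNGAA, to which STAT6 binds, and TTCNNNGAA, the spacing of other STAT proteins, matched in 6.44% and 7.66% of all windows and in none of the 3 windows here.

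The ligands of these receptors gave little signal. The brightest IL4 probe set read 3.68 to 14.5 units over the 6 arrays and IL13 3.59 to 59.9 units, and neither mean reached the floor. Of 7 ligands and other type 2 cytokines listed, 5 had a named probe set and none was tested. IL2RG, the partner of IL4R in the type I receptor, read 3.07 to 40.2 units, below the floor on every array. CHI3L1, a chitinase-like protein reported to bind IL13RA2, read 2.44 to 67.4 units and was not tested either.

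Kinases and adaptors of the receptors changed in both directions and by small amounts. Of the 10 tested, 3 rose and 2 fell in S1a and 3 rose and 3 fell in S1b against parental (limma, adjusted p under 0.05), where 39.2% of all genes passed in S1a (19.4% rose, 19.9% fell) and 41.6% in S1b (20.7% rose, 20.9% fell). The list median was 0.15 in S1a and 0.21 in S1b (log2), beside -0.030 and -0.021 over all genes. JAK1, which binds the IL4R chain, fell to 975 ± 23.8 units in S1a and 991 ± 43.2 in S1b, against 1306 ± 39.5 in parental (SD, n = 2), a log2 difference of -0.42 ± 0.091 (adjusted p = 0.0051) and -0.40 ± 0.091 (0.00612). Both JAK1 calls ended when arrays were centred on their medians (limma adjusted p = 0.125 and 0.165). TYK2, which binds IL13RA1, fell in S1b (-0.48 ± 0.15, limma adjusted p = 0.0315, lost under 8 of 16 alternatives) and did not pass in S1a (-0.24 ± 0.15, 0.243). JAK2 averaged 57.3 units in S1a and 66.3 in S1b, against 43.3 in parental, and JAK3 42.1, 55.4 and 58.9 units in the same groups, near the floor and without a call. IRS2, an adaptor docked to IL4R, rose in both isolates (0.45 ± 0.095, limma adjusted p = 0.00456, and 0.51 ± 0.095, 0.00212), and GRB2 rose as well (0.64 ± 0.12 and 0.55 ± 0.12). IRS1 passed in S1a only narrowly (0.29 ± 0.099, limma adjusted p = 0.0392, lost under 9 of 17 alternatives), and the adaptor SHC1 fell in both (-0.55 ± 0.093 and -0.29 ± 0.093). Of the S1b calls, that of GRB2 ended without S1b replicate 2 (highest limma adjusted p 0.0579), and that of SHC1 without either S1b array, without parental replicate 2, without the variance trend and with median centring (highest 0.514). The S1a call of IRS2 ended with the mean of its probe sets (0.0882). In S1a minus S1b, where 1.89% of all genes passed (1.42% rose, 0.462% fell), none of the 10 passed in limma (3 had an unadjusted p under 0.05).

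Of the other STAT proteins, 4 were tested. STAT3, which mediates signals of interleukin 6 family cytokines, rose to 2127 ± 103 units in S1a and 2127 ± 38.1 in S1b, against 1318 ± 8.52 in parental, with log2 differences of 0.69 ± 0.083 in both (limma adjusted p = 0.000191 and 0.00015). STAT4, which interleukin 12 activates, averaged 54.6 ± 4.46 units in S1a and 41.8 ± 0.0334 in S1b, under the floor, against 108 ± 13.6 in parental (SD, n = 2). It fell by at least 2.46-fold in S1b (limma adjusted p = 0.0123, and 0.0529 without parental replicate 1) and had -0.94 ± 0.34 in S1a (0.0507). STAT5A and STAT5B passed in neither isolate.

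Negative regulators were mixed. Of 14 tested, 3 rose and 3 fell in S1a and 4 rose and 3 fell in S1b, with list medians of 0.075 and -0.003 (log2). The calls in either direction, 6 in S1a and 7 in S1b, were near the background, where 39.2% and 41.6% of all genes passed. Fewer fell in S1a without either S1a array or without parental replicate 1, and fewer fell in S1b without S1b replicate 1. Fewer of all genes fell in these cases too. SOCS1, an inhibitor of JAK kinases that interleukin 4 itself induces, read 38.3 ± 0.332 units in S1a and 35.2 ± 5.92 in S1b, both below the floor, against 113 ± 22.2 in parental (SD, n = 2), a fall of at least 2.58-fold in each (limma adjusted p = 0.0134 and 0.00855). The S1a call was lost without either S1a array or without parental replicate 1 (highest adjusted p 0.0704). SOCS6 fell in both (-1.26 ± 0.29 and -1.08 ± 0.29), and SOCS5 (0.52 ± 0.11 and 0.70 ± 0.11), the phosphatase PTPN2 (0.58 ± 0.11 and 0.45 ± 0.11) and the phosphatase PTPN11 (0.54 ± 0.08 and 0.58 ± 0.08) rose in both. The S1b call of SOCS6 ended without S1b replicate 1 or parental replicate 2 and with the mean of its probe sets (highest limma adjusted p 0.109) and that of PTPN2 without S1b replicate 2 (0.0626). The several PTPN11 probe sets disagreed in sign. SOCS3 (-0.068 ± 0.31 and -0.0047 ± 0.31) and CISH (-0.47 ± 0.56 and -0.47 ± 0.56) did not pass, and with shared-probe suffixes left out SOCS3 rested on a dimmer probe set and gave 2.45 in S1b (limma adjusted p = 0.0257).

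**Figure D3:**
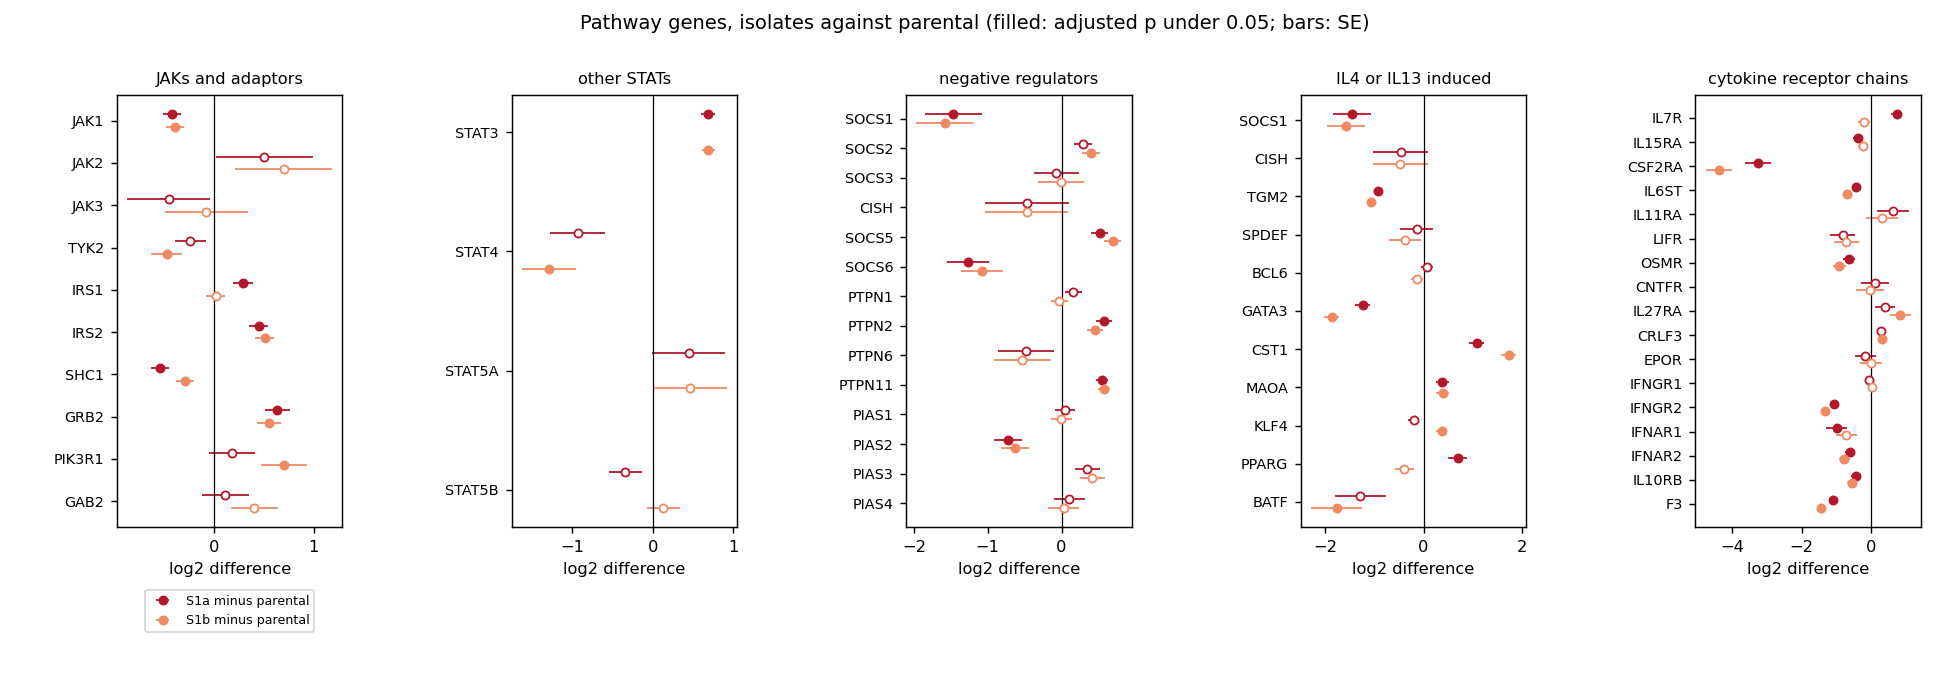
Log2 difference from parental for the tested kinases and adaptors, other STAT proteins, negative regulators, genes that interleukin 4 or 13 induces, and other cytokine receptor chains, with SE bars; filled markers passed in limma at an adjusted p under 0.05, and axes differ between panels. JAK1 and SOCS1 lie below 0 and STAT3 and IRS2 above 0 in both isolates, and CSF2RA lies farthest to the left.

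Genes known to be induced by interleukin 4 or 13 through STAT6 were mostly dim. Of 36 listed, 29 had a named probe set and 11 were tested, among them SOCS1 and CISH from the regulator list. In S1a 3 rose and 3 fell, beside 19.4% and 19.9% of all genes, and in S1b 3 rose and 4 fell, beside 20.7% and 20.9%, with list medians of -0.19 and -0.39 (log2). Fewer rose in S1a without S1a replicate 1 or parental replicate 1, and fewer rose in S1b without either S1b array or parental replicate 1. Over all genes fewer rose too without these isolate arrays, while without parental replicate 1 about as many rose as with all arrays. Among those below the floor were the eotaxins CCL11 and CCL24, the chemokines CCL17 and CCL22, arachidonate 15-lipoxygenase (ALOX15, 1.46 to 10.1 units) and periostin (POSTN, 1.09 to 22.6 units). The transcription factor GATA3 fell to 285 ± 22.6 units in S1a and 182 ± 6.01 in S1b, against 679 ± 96.3 in parental (SD, n = 2; -1.24 ± 0.15 and -1.87 ± 0.15, limma adjusted p = 0.000191 and 1.2e-05). Transglutaminase 2 (TGM2) fell in both (-0.92 ± 0.096 and -1.07 ± 0.096), but both calls ended with the mean of its probe sets (limma adjusted p = 0.719 and 0.0689). The cystatin CST1, which interleukin 13 induces in airway epithelium, rose to 277 ± 2.84 units in S1a and 437 ± 20.5 in S1b, against 128 ± 1.25 in parental (1.08 ± 0.15 and 1.73 ± 0.15, limma adjusted p = 0.00041 and 1.79e-05).

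The nuclear receptor PPARG and the transcription factor KLF4 passed between the isolates, and KLF4 was named after its values were seen. PPARG averaged 386 ± 33.2 units in S1a and 181 ± 27.7 in S1b, beside 239 ± 49.9 in parental (SD, n = 2), and S1a minus S1b was 1.08 ± 0.19 (limma adjusted p = 0.0262). KLF4 averaged 1060.1 ± 3.49 units in S1a and 1568 ± 27.2 in S1b, beside 1222 ± 198 in parental, and S1a minus S1b was -0.56 ± 0.11 (limma adjusted p = 0.0392). Without either array of S1a or of S1b, both calls ended, and over all alternatives that of PPARG was lost under 6 of 16 and that of KLF4 under 9 of 16 (highest limma adjusted p 0.191 and 0.232).

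Genes reported downstream of IL13RA2 changed in both directions. Of 8 tested, 1 rose and 3 fell in S1a and 2 rose and 3 fell in S1b, where 39.2% of all genes passed in S1a and 41.6% in S1b, with list medians of -0.032 and 0.11 (log2), and none passed between the isolates in limma (2 had an unadjusted p under 0.05). TGFB1, which IL13RA2 has been described to induce through AP-1, averaged 391 ± 45.7 units in S1a and 394 ± 41.4 in S1b, against 291 ± 3.82 in parental (SD, n = 2; 0.42 ± 0.14 and 0.43 ± 0.14, limma adjusted p = 0.0434 and 0.0367), and these calls were lost under 10 and 9 of 16 alternatives. The AP-1 subunit JUN rose in S1b (0.42 ± 0.1, limma adjusted p = 0.00957) and had 0.057 ± 0.1 in S1a, and its S1b call ended without S1b replicate 2, without the variance trend and when probe sets with shared-probe suffixes were left out (highest 0.293). VEGFA (-1.51 ± 0.09 and -1.63 ± 0.09) and the urokinase gene PLAU (-0.89 ± 0.09 and -1.26 ± 0.09) fell in both. FAM120A, a scaffold protein reported to bind IL13RA2, fell in both (-0.46 ± 0.077 and -0.52 ± 0.077), and these calls ended with the mean of its probe sets (limma adjusted p = 0.238 in S1a and 0.347 in S1b), the S1a call also with median centring (0.062).

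Over all 44 tested genes of these pathway lists, 11 rose and 10 fell in S1a and 13 rose and 13 fell in S1b against parental, while 1 rose and 1 fell in S1a minus S1b. Of all genes, 19.4% rose and 19.9% fell in S1a, 20.7% and 20.9% in S1b, and 1.42% and 0.462% in S1a minus S1b. The medians of the pathway genes were 0.052, 0.0061 and -0.011 (log2) in the same order. Leaving out S1a replicate 1 left 7 that rose in S1a. Leaving out S1b replicate 1 left 8 that rose and 8 that fell in S1b, and leaving out S1b replicate 2 left 5 that rose in S1b. In S1a minus S1b, fewer passed without any 1 array of S1a or S1b and more without any 1 parental array. The counts over all genes moved in the same way. With arrays centred on their medians, 13 rose and 8 fell in S1a and 15 rose and 9 fell in S1b. Over all genes that scaling gave 2334 that rose and 869 that fell in S1a, against 1510 and 1547 as deposited, and 2447 that rose and 992 that fell in S1b, against 1616 and 1628 as deposited.

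Most other cytokine receptor chains that changed against parental were lower, as IL13RA1 was. Of 40 chains listed, 36 had a named probe set and 17 were tested, and 1 rose and 9 fell in S1a and 2 rose and 7 fell in S1b, where 19.9% of all genes fell in S1a and 20.9% in S1b, with list medians of -0.43 and -0.55 (log2), beside -0.030 and -0.021 over all genes. With arrays centred on their medians 3 fell in S1a, where that scaling gave 869 of 7791 genes that fell, against 1547 as deposited. Fewer chains fell in S1a without either S1a array too, as did fewer of all genes. In S1b 0 rose without S1b replicate 2 or without parental replicate 2. CSF2RA, the alpha chain of the GM-CSF receptor, read 71.3 ± 17.2 units in S1a and 33 ± 21.4 in S1b, against 702 ± 71.3 in parental (SD, n = 2), a log2 difference of -3.25 ± 0.38 in S1a and a fall of at least 16-fold in S1b (limma adjusted p = 0.000157 and 1.79e-05). Its probe set carries a shared-probe suffix, and the CSF2RA probe sets over the filter disagreed in sign between the isolates, though not against parental. IFNGR2, a chain of the interferon gamma receptor (-1.08 ± 0.1 and -1.33 ± 0.1), IL6ST, the shared chain of interleukin 6 family receptors (-0.45 ± 0.1 and -0.70 ± 0.1), and tissue factor F3, a distant member of the receptor family (-1.09 ± 0.098 and -1.44 ± 0.098), fell in both. The S1a call of IL6ST ended without S1a replicate 1, without the variance trend and with median centring (highest limma adjusted p 0.0752). IL7R, which pairs with IL2RG, was the chain that rose in S1a, to 877 ± 59.1 units, against 461 ± 123 in S1b and 527 ± 60 in parental, and it was named after its values were seen. Its S1a minus parental difference was 0.73 ± 0.17 (limma adjusted p = 0.0072) and S1a minus S1b 0.95 ± 0.17 (0.0276, lost under 6 of 17 alternatives, among them without either S1a array and without S1b replicate 1).

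IL13RA2 is itself among the genes reported high in lung-metastatic derivatives of the line. Of the other 14 tested, 6 rose and 2 fell in S1a and 8 rose and 2 fell in S1b, beside 19.4% and 19.9% of all genes in S1a and 20.7% and 20.9% in S1b. In S1a minus S1b 2 fell, beside 0.462% of all genes, both in the direction opposite to IL13RA2. Fewer rose in S1b without either S1b array, as did fewer of all genes. In S1a fewer fell when any 1 array was left out, again as over all genes. The collagenase MMP1 averaged 6601 ± 93.5 units in S1a and 12124 ± 153 in S1b, beside 363 ± 34.7 in parental, and S1a minus S1b was -0.88 ± 0.089 (limma adjusted p = 0.00125, and 0.116 without the variance trend). The matrix protein SPARC, named after its values were seen, averaged 37 ± 2.82 units in S1a and 380 ± 18.7 in S1b, at least 8.65-fold lower in S1a (limma adjusted p = 0.000686), beside 38.4 ± 1.8 units in parental. The chemokine CXCL1 (2.72 ± 0.14 in S1a, 3.14 ± 0.14 in S1b) and the guidance receptor ROBO1 (at least 12.7-fold and at least 14.7-fold) rose in both against parental, and the adhesion scaffold NEDD9 fell in both (-2.41 ± 0.25 and -2.87 ± 0.25).

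The genes whose log2 signal followed IL13RA2 most closely over the 6 arrays were chosen among the 102 tested genes at least 2-fold higher in S1a than in S1b, so their S1a excess comes from that choice. IL1B, an inflammatory cytokine, had the highest Pearson correlation (r = 0.99), with 618 and 628 units in S1a, 297 and 246 in S1b and 101 and 83.3 in parental. Like IL13RA2 it was highest in S1a, intermediate in S1b and lowest in parental without overlap. APOBEC3G, an antiviral cytidine deaminase (r = 0.91), and the cancer-testis gene SSX1 (r = 0.89) followed. SSX1 read 529 and 475 units in S1a, 56.4 and 58.1 in S1b and 23.6 and 61.9 in parental, so S1b and parental overlapped. The remaining 7 were ZC3H7B, SSX3, STOML1, SULT1C2, PYGB, ZNF428 and ZBTB48, with r down to 0.78. Of these, SSX3, SULT1C2, ZNF428 and ZBTB48 did not pass in S1a minus S1b (limma adjusted p = 0.109, 0.232, 0.0557 and 0.228). The SSX1 and SSX3 probe sets carry the suffix of probes shared with related genes, so the SSX gene behind the signal is uncertain. The ZC3H7B probe set carries a shared-probe suffix too, and the several ZC3H7B probe sets disagreed in sign in every comparison. With 6 arrays in 3 groups these coefficients describe the arrays only.

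**Figure D4:**
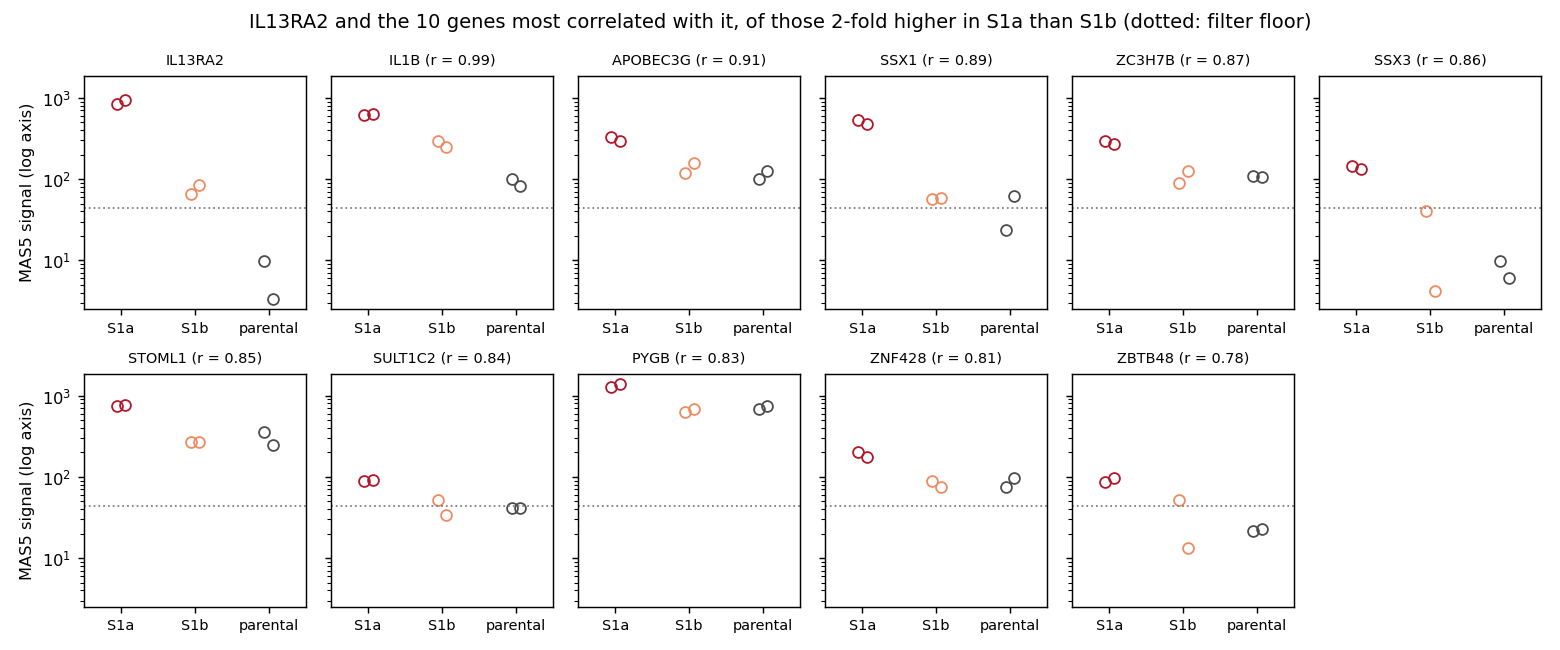
MAS5 signal (log axis) of each array in S1a, S1b and parental for IL13RA2 and the 10 genes most correlated with it among those at least 2-fold higher in S1a than in S1b; the dotted line is the floor of 44 units. IL1B steps down over the 3 groups as IL13RA2 does, while for PYGB and SSX1 the S1b and parental arrays lie close together.

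Of all tested genes, IL13RA1 was followed most closely by VAMP8 (r = 0.999), HLA-DMA (r = 0.997) and MYDGF (r = 0.997). HLA-DMA, a class II peptide-loading gene, averaged 133 ± 2.77 units in S1a and 93.6 ± 25.6 in S1b, against 391 ± 14.3 in parental (SD, n = 2), and VAMP8, a vesicle fusion protein, 2882 ± 12.8 units in S1a and 2585 ± 318 in S1b, against 3979 ± 103 in parental. In all, 24 genes had r over 0.99 with IL13RA1. IL4R was followed by FKBPL (r = 0.994), the cohesin subunit RAD21 (r = 0.994) and CHML (r = 0.991). STAT6 was followed by the mismatch repair gene MLH3 (r = 0.972), ZNF79 (r = 0.971) and KHDC4 (r = 0.964), none of which passed in any comparison.

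IL13RA2 and IL13RA1 both lie on chromosome X, with 2 tested genes between them, PLS3 and WDR44, by the RefSeq gene order. This order counts tested genes only and gives no distance. The actin-bundling gene PLS3, next to IL13RA2, passed in neither isolate (-0.087 ± 0.085 and -0.014 ± 0.085), and ALG13, a glycosylation gene on the other side, fell in both (-0.35 ± 0.11 and -0.47 ± 0.11, limma adjusted p = 0.0314 and 0.0077, the S1a call lost under 7 of 17 alternatives, among them without either S1a array and without parental replicate 2, and both calls with median centring and with shared-probe suffixes left out). Of the 9 nearest tested genes around IL13RA2 that are not members, 1 rose and 5 fell in S1a and 1 rose and 4 fell in S1b, beside 19.4% and 19.9% of all genes in S1a and 20.7% and 20.9% in S1b, and none passed between the isolates in limma (0 had an unadjusted p under 0.05). The 1 that rose was CHRDL1, a BMP antagonist named after its values were seen. CHRDL1 read 605 and 610 units in S1a and 871 and 719 in S1b, against 106 and 73.2 in parental, so unlike IL13RA2 it was not higher in S1a than in S1b. WDR44, next to IL13RA1, fell in both (-0.95 ± 0.17 and -0.62 ± 0.17, limma adjusted p = 0.00165 and 0.0143), its S1b call ending without either S1b array, without parental replicate 1 and with median centring (highest 0.0729). LONRF3, on its other side, passed in neither (-0.14 ± 0.24 and 0.039 ± 0.24). Of the 9 nearest tested genes around IL13RA1 that are not members, 1 rose and 4 fell in each isolate, beside the same shares of all genes. Of these 9, 6 were also counted around IL13RA2.

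The nearest tested genes on either side of IL4R on chromosome 16 rose in both isolates. LCMT1, a methyltransferase gene, gave 0.53 ± 0.1 in S1a and 0.36 ± 0.1 in S1b (limma adjusted p = 0.00297 and 0.0203), and GTF3C1, a subunit of an RNA polymerase III factor, 0.45 ± 0.14 and 0.95 ± 0.14 (0.0331 and 0.000561). Of the 10 nearest tested genes around IL4R, 3 rose and 1 fell in each isolate, where 19.4% of all genes rose and 19.9% fell in S1a and 20.7% rose and 20.9% fell in S1b. The S1b call of LCMT1 was lost under 4 of 16 alternatives, among them without either S1b array and without parental replicate 1 (highest limma adjusted p 0.0927). The S1a call of GTF3C1 was lost under 7 of 17, among them without either S1a array and without parental replicate 1 (highest 0.168). Next to STAT6 on chromosome 12, the serine metabolism gene SHMT2 rose in both (0.56 ± 0.11 and 0.54 ± 0.11, limma adjusted p = 0.0025 and 0.00298) and NAB2 passed in neither (0.20 ± 0.31 and 0.16 ± 0.31). Of the 10 nearest there, 2 rose and 1 fell in S1a and 3 rose and 1 fell in S1b, beside the same shares of all genes.

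**Figure D5:**
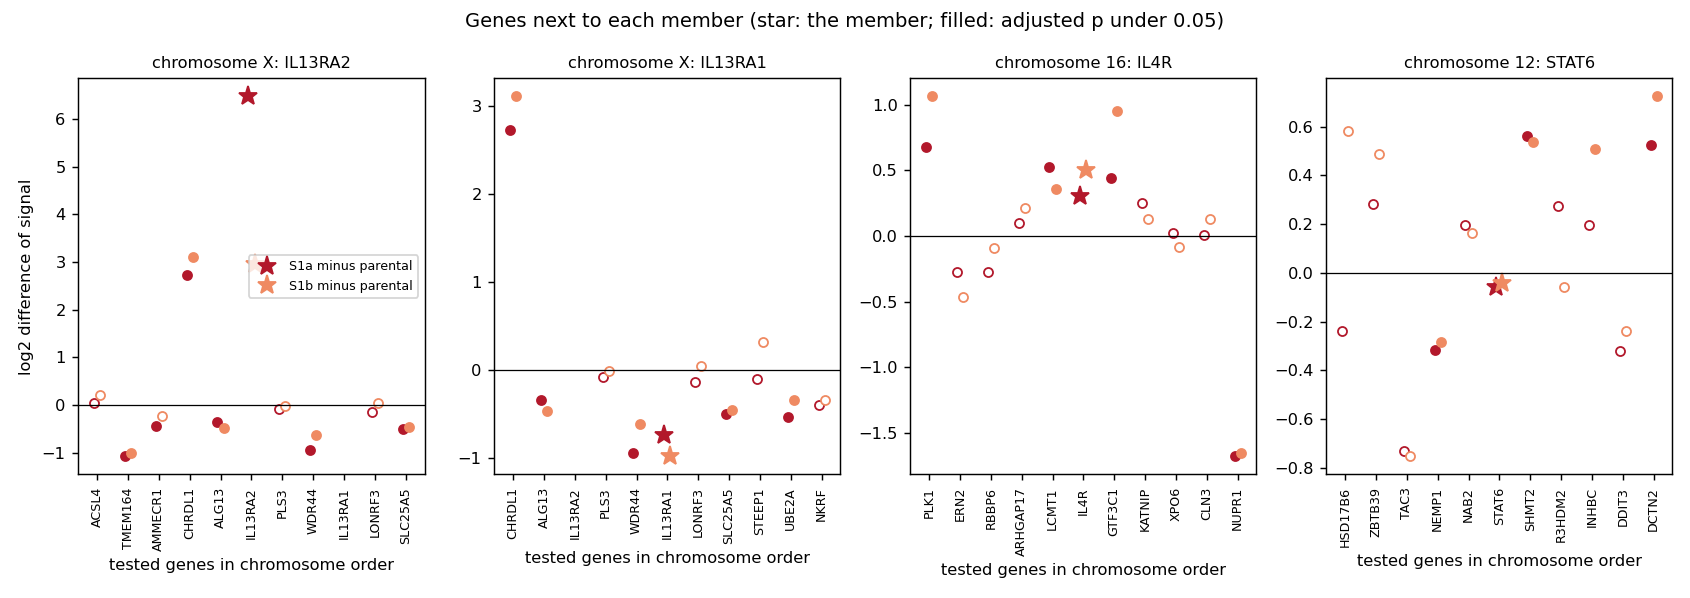
Log2 difference from parental (S1a and S1b in separate colours) for the nearest tested genes on either side of each member, in chromosome order; a star is the member, a filled marker passed in limma at an adjusted p under 0.05, and the other chromosome X member has a place but no marker. IL13RA2 and CHRDL1 stand above their neighbours, and the vertical axes differ between panels.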

How the data were processed

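MAS5 signals of 6 arrays were analysed. Per the submitters' processing notes the deposited intensity values came from MAS5, whose version is not given in the sources used here, 1 per probe set and array, on a linear scale. Detection calls and scanner files were not used here. Arrays have no read depth, and their number limits the precision. Members and gene lists were chosen with earlier results of these data known.

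Of 22215 probe sets other than controls, 19064 had 1 gene symbol, 1043 several and 2108 none. Symbols were updated through gene IDs in the RefSeq gene table (GRCh38.p14, 19052 matched), which also gave gene order. No build was named for the array, so the only coordinates given are those of the RefSeq promoter windows. Values were log2(signal + 3.94), the pseudocount being the 10th percentile of all signals. A gene was its probe set with the highest mean, and genes below the 40th percentile of mean signal (44 units) were left out, which left 7791. With limma 3.58.1 (R 4.3.3), all 6 arrays entered 1 model of the 3 group means, with a variance trend and Benjamini-Hochberg adjustment over all genes (threshold 0.05). All adjusted p-values are limma's. Members' differences come from the same model over 11860 probe sets. Where 1 group lay under 44 units, the fold is the brighter mean over 44, a lower bound. The procedure was also run on simulated data in which far fewer genes changed than passed against parental here. That run therefore does not give its error rates for these data.

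Always named were IL4, IL13, IL2RG, JAK1, JAK2, JAK3, TYK2, IRS1, IRS2, STAT3, SOCS1, SOCS3 and CISH, with up to 4 genes per list by smallest p, the 10 genes most like IL13RA2, 3 like each other member, and the nearest tested gene on either side of each member. Other names are said to be chosen after their values were seen or complete a count. Alternatives varied the pseudocount, filter, scaling, probe set choice, variance model and arrays used, and added a replicate block.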

Additional observations from a re-analysis of the deposited data

Results flagged for a closer look

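In S1a minus S1b, 1.89% of all genes passed in limma (1.42% rose, 0.462% fell). By that test the isolates differed from each other in 5 genes of the described lists. Of these, 2 were higher in S1a, PPARG by 1.08 (log2, adjusted p = 0.0262) and IL7R by 0.95 (adjusted p = 0.0276), each on both S1a arrays. The other 3 were lower in S1a on both arrays, KLF4 by a difference of -0.56 (adjusted p = 0.0392), MMP1 of -0.88 (adjusted p = 0.00125) and SPARC of -3.23 (adjusted p = 0.000686), where the S1a signal of SPARC lay under the floor. Over all alternatives the adjusted p of SPARC reached 0.0304 at most, that of MMP1 0.116, that of PPARG 0.191, that of IL7R 0.213 and that of KLF4 0.232.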

How the results depend on the processing

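Differences of the 4 members kept their direction under all alternatives for IL13RA2, IL13RA1 and IL4R, while STAT6, near 0, did not. For IL13RA2 a pseudocount of 1 gave 7.01 (S1a minus parental) and 3.45 (S1b minus parental), and a pseudocount of 50 gave 4.06, 1.14 and 2.92 (S1a minus S1b). With the mean of probe sets, IL13RA1 gave -1.10 (S1a) and -1.30 (S1b) against parental, and STAT6 0.11, -0.35 and 0.47 (S1a minus S1b). With median centring, IL13RA1 gave -0.55 and -0.80, IL4R 0.50 and 0.70 and STAT6 0.13 and 0.15 in S1a and S1b against parental. STAT6 had no value with shared-probe suffixes left out. With 1 array left out, S1a minus parental ran from 6.01 to 6.93 for IL13RA2, -0.76 to -0.73 for IL13RA1, 0.12 to 0.49 for IL4R and -0.16 to 0.047 for STAT6. S1b minus parental ran from 2.50 to 3.42, -1.16 to -0.81, 0.32 to 0.69 and -0.14 to 0.060, and S1a minus S1b from 3.35 to 3.67, 0.069 to 0.42, -0.30 to -0.096 and -0.10 to 0.075 in the same order. Where that left 1 array in a group, it was assumed to vary like the others.

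With shared-probe suffixes left out, 6 pathway genes rose and 6 fell in S1a against parental, and 8 rose and 6 fell in S1b. Fewer genes were tested there, 4781 in place of 7791. Of the kinases and adaptors 4 were left of 10, and of the negative regulators 9 of 14. Of all genes, 891 rose and 840 fell in S1a and 973 rose and 922 fell in S1b under that setting. In S1b 8 fell with a filter at the 60th percentile and 8 with the mean of probe sets, and 8 rose without the variance trend. Of all genes in S1b, 1327 of 5616 fell with that filter and 1464 of 7584 with that mean. Without the trend 1187 of 7791 rose. With 1 array left out, 7 to 9 rose and 8 to 11 fell in S1a, and 5 to 12 rose and 8 to 13 fell in S1b. Between the isolates (1 rose, 1 fell), 0 rose and 0 fell with no filter, without the variance trend and with shared-probe suffixes left out. None (0) fell with median centring, the mean of probe sets or the replicate block. Quantile normalization gave 2 that rose, array weights gave 3 that rose and 2 that fell, and leaving out 1 array gave 0 to 3 and 0 to 2. By Spearman correlation 9 of the 10 genes most like IL13RA2 stayed among the closest. The coefficient was 0.94 for IL1B and 0.60 to 0.77 for the others of these 9. For the other members, VAMP8, FKBPL, CHML and KHDC4 stayed among the closest, and HLA-DMA, MYDGF, RAD21, MLH3 and ZNF79 did not. At the top, 95 genes were tied for IL13RA1, 77 for IL4R and 9 for STAT6. Single genes reversed in 6 cases, IL27RA in S1b to -0.084 (mean of probe sets), EGFR in S1a to -0.38 and SOCS3 in S1b to 2.45 (suffixes left out), CLN3 in S1b to -0.60 (without parental replicate 1) and ACSL4 to -0.65 in S1a and -0.48 in S1b (without parental replicate 2), while its values with another array left out reached 0.74 in S1a and 0.92 in S1b. The cause was not tested for any of these. Same-numbered arrays did not deviate together (r from -0.067 to -0.0046 across genes). The labels do not say whether arrays of the same number were handled together, and these correlations cannot decide it. The replicate block left 0 pathway genes that fell between the isolates and moved no other pathway count by over 1.5 times. An intensity near 44 units limits what can be said of dim genes, the ligands and IL2RG among them.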
